A study of Arabidopsis thaliana with 6 samples.

Results

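The AINTEGUMENTA-like and PLETHORA genes are 8 plant transcription factor genes, ANT, AIL1, PLT1, PLT2, AIL5, AIL6, AIL7 and BBM, which were taken by their locus codes from the 28141 features (annotated loci, isoforms summed, and assembled transcripts) of the data. All 8 were listed in every library, AIL1 at 0 in 4 of them. Their RNA was measured in whole seedlings of Arabidopsis thaliana, ecotype Col-0, 5 days old, raised on MS plates at 23 °C in long days of 16 h light. The data hold 3 libraries of fip37-4 LEC1:FIP37 and 3 of wild-type. Wild-type seedlings carry neither the allele nor the transgene. FIP37 belongs to the enzyme complex that deposits N6-methyladenosine in mRNA, fip37-4 is a mutant allele of its gene, and in LEC1:FIP37 the transgene is driven by the LEC1 promoter, which is active mainly in embryos. The comparison asks how seedlings of this line differ from wild-type after germination.

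Each of these proteins carries a pair of AP2 domains, which bind DNA. PLT1, PLT2, BBM and AIL6 (also called PLT3) act in the root tip, where a gradient of PLETHORA protein set up by auxin holds stem cells, dividing cells and differentiating cells in order. ANT promotes cell proliferation and growth in young lateral organs of the shoot, and AIL6 and AIL7 (PLT7) act with it in the shoot meristem, in organ positioning and in flowers. AIL5 (PLT5) acts in lateral root and shoot development and in germinating seeds, and BBM is also known for inducing somatic embryos when overexpressed. For the contrast of organs, PLT1, PLT2 and BBM were taken as the 3 root-tip members, ANT, AIL6 and AIL7 as the 3 shoot members, and AIL1 and AIL5 were placed in neither group. AIL6 belongs to both organs, so each contrast was also made with AIL6 on the root side.

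The genes are related closely enough that reads of one could be assigned to another, so their sequences were compared first. Over the aligned coding sequences (RefSeq, assembly TAIR10.1, the first listed transcript of each gene), 778 positions had no gap in any member and 299 of these held the same base in all 8. The window of 60 bases with the most shared positions, 40 of 60, is printed here because it shows both the common framework and how far each member departs from it. Coordinates are of TAIR10.1 and each window spans an intron, which is left out of the sequence. Capitals mark a base other than the commonest at that position, ties going to the base met first when starting from ANT.
ANT (chr4:17740780-17740926, plus strand): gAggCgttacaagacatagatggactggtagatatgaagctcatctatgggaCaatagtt
AIL6 (chr5:3317257-3317485, plus strand): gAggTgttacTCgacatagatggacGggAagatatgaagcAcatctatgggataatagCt
AIL7 (chr5:26186839-26187193, plus strand): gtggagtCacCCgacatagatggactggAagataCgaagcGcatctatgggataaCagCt
AIL5 (chr5:23255248-23255441, minus strand): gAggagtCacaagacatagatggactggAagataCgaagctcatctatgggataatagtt
PLT1 (chr3:7301387-7301536, plus strand): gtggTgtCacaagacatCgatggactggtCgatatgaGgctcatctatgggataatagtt
PLT2 (chr1:18978343-18978490, plus strand): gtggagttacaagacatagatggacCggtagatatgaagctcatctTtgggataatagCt
BBM (chr5:5744318-5744604, minus strand): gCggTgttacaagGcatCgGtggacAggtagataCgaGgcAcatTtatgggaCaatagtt
AIL1 (chr1:27332149-27332387, plus strand): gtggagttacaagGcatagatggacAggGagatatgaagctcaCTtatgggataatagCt
BBM departed from the commonest base at 11 of the 60 positions, AIL6 and AIL7 at 8 each, and ANT and PLT2 at 3 each. Across whole coding sequences, PLT1 and PLT2 shared 79.1% of aligned bases and AIL6 and AIL7 77.6%, whereas the next pair, AIL1 and PLT2, shared 60%.

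The longest exact stretch common to any pair of the 8 transcripts was 38 bases, in PLT1 and PLT2, and it is shown because no longer run is free of differing bases.
PLT1 and PLT2: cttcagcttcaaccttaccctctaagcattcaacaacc
ANT and BBM: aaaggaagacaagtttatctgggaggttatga
The next longest, printed under it, was the 32 bases common to ANT and BBM, and AIL6 and AIL7 shared at most 22. The sources used here do not give the read length. A fragment lying wholly within such a stretch could not be assigned to a single gene, while a longer one would include at least 1 base that differs. An alignment that tolerates mismatches could be shared over longer stretches, and such sharing was not tested. By position, AIL6 is the 1 member whose annotated locus (TAIR10.1) overlaps another gene, RBK1 (AT5G10520), on the opposite strand.

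FIP37 (AT3G54170) was at 80.6, 65.0 and 67.5 FPKM in the libraries labelled fip37-4 LEC1:FIP37 and at 8.99, 9.03 and 8.96 FPKM in those labelled wild-type. FPKM relate the fragments of a transcript to its length and to the depth of the library. The files do not separate RNA of the transgene from that of the endogenous gene, so this level does not check the mutation, and every direction given here is that of the libraries so labelled. The summed FPKM ran from 1160321 to 1350343 per library and from 22472 to 22884 features were above 0. Genes of the chloroplast and mitochondrial genomes held 56.9% to 60.1% of the summed FPKM in fip37-4 LEC1:FIP37 and 50.7% to 51.2% in wild-type. This share moved with genotype, and a scaling to nuclear loci alone is given among the alternatives. Nothing in the labels ties replicates to separate plates or sowings, and the p-values therefore measure how these samples spread, which may be technical alone. In whole seedlings, fewer cells of a type and less RNA per cell cannot be told apart.

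The members spanned a wide range of levels, with the same order at the top in both genotypes. In fip37-4 LEC1:FIP37 the mean was 4.51 FPKM for ANT, 2.25 for AIL6, 0.927 for AIL5, 0.408 for AIL7, 0.0841 for PLT2, 0.0665 for PLT1, 0.0337 for BBM and 0.0195 for AIL1. In wild-type it was 4.47 FPKM for ANT, 1.22 for AIL6, 0.797 for AIL5, 0.267 for AIL7, 0.168 for BBM, 0.140 for PLT2 and 0.129 for PLT1, and AIL1 was listed at 0. The ranges of neighbours from ANT down to AIL7 did not overlap in either genotype. Lower down, PLT2 overlapped PLT1, PLT1 overlapped BBM and BBM overlapped AIL1 in fip37-4 LEC1:FIP37, but PLT2 lay wholly above BBM and AIL1, and PLT1 wholly above AIL1. In wild-type BBM overlapped AIL7, PLT2 and PLT1, and PLT2 overlapped PLT1, while AIL7 lay wholly above PLT2 and PLT1. By its mean BBM stood below PLT2 and PLT1 in fip37-4 LEC1:FIP37 and above both in wild-type.

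**Figure D1:**
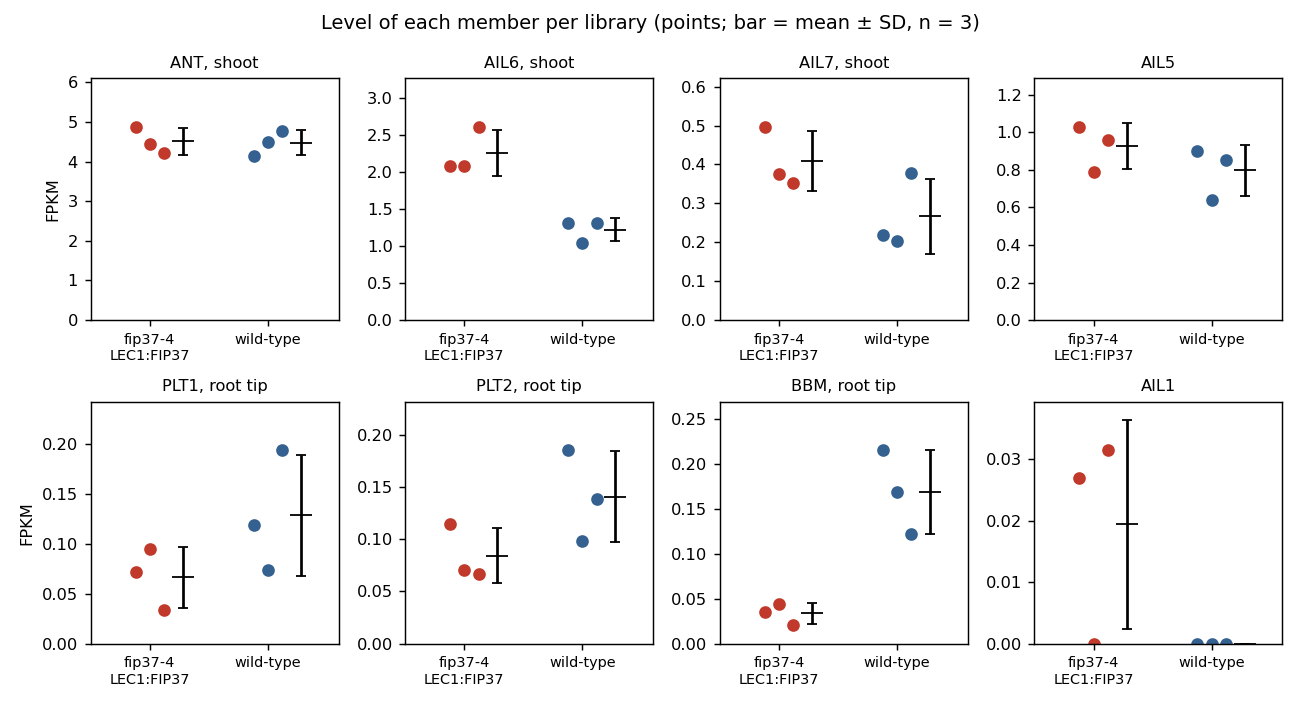
FPKM (y axis, a separate linear scale from 0 in each panel) of the 8 members in the 3 fip37-4 LEC1:FIP37 libraries (red) and the 3 wild-type libraries (blue), with the mean ± SD beside the points. The groups are apart for AIL6 (2.07 to 2.61 FPKM in fip37-4 LEC1:FIP37 and 1.04 to 1.31 FPKM in wild-type) and BBM (0.0209 to 0.0444 FPKM in fip37-4 LEC1:FIP37 and 0.121 to 0.215 FPKM in wild-type) and overlap for the other members.

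Groups were compared with limma on log2(FPKM + 0.5) over the 19383 features that had at least 0.5 FPKM in at least 3 libraries, with Benjamini-Hochberg adjustment over all of them. Fold changes are on that scale, where changes of low genes come out too small. ANT, AIL5 and AIL6 passed the filter, and 5 members, AIL7, BBM, PLT1, PLT2 and AIL1, did not. Of the 3 tested, AIL6 rose and ANT and AIL5 did not pass the test. Among all features tested 27.6% were higher and 30.9% lower in fip37-4 LEC1:FIP37, 58.6% in all, so a call by itself is common in these data. The median log2 fold change of all tested features was -0.0019 and that of the 3 tested members was 0.14.

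Among the shoot members, AIL6 (AT5G10510) rose. It was at 2.08, 2.07 and 2.61 FPKM in fip37-4 LEC1:FIP37 and at 1.30, 1.04 and 1.31 FPKM in wild-type. Every fip37-4 LEC1:FIP37 library was above every wild-type library, which held for 31.9% of all features tested, while the reverse held for 34.1%. The mean was 2.25 ± 0.307 FPKM in fip37-4 LEC1:FIP37 and 1.22 ± 0.154 FPKM in wild-type (SD, n = 3 each), a ratio of 1.85. The log2 fold change was 0.68 ± 0.11 (SE; 95% interval 0.42 to 0.94; limma adjusted p = 0.00102), and it ran from 0.55 to 0.84 over 16 alternatives, each of which kept the call.

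AIL6 was the 1 member listed with more than a single transcript, and its pair of expressed isoforms rose together. Transcript AT5G10510.1 was at 1.35, 1.31 and 1.99 FPKM in fip37-4 LEC1:FIP37 and at 0.956, 0.538 and 0.941 FPKM in wild-type. Transcript AT5G10510.3, which in RefSeq starts further upstream and encodes 1815 coding bases against 1710, was at 0.731, 0.767 and 0.621 FPKM in fip37-4 LEC1:FIP37 and at 0.347, 0.501 and 0.369 FPKM in wild-type. Neither isoform overlapped between genotypes. The share of single transcripts lying so apart, or called, is not given here. Both levels divide the fragments of 1 locus, so they are not separate results. With each transcript on its own, their log2 fold changes were 0.64 ± 0.19 and 0.42 ± 0.14 (SE; limma adjusted p = 0.0309 and 0.0473). AT5G10510.2 never exceeded 0.00034 FPKM. Transcript AT5G10510.1 held 64.8%, 63.0% and 76.2% of AIL6 in fip37-4 LEC1:FIP37 and 73.4%, 51.8% and 71.8% in wild-type, ranges that overlap.

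RBK1, a receptor-like cytoplasmic kinase gene on the other strand, overlaps the exons of AT5G10510.1 by 413 nt and those of AT5G10510.3 by 333 nt at their 3' ends. RBK1 was at 1.42, 1.38 and 1.06 FPKM in fip37-4 LEC1:FIP37 and at 1.86, 2.03 and 1.91 FPKM in wild-type, and so moved in the opposite direction to AIL6 (log2 fold change -0.45 ± 0.10, SE; limma adjusted p = 0.00597). The libraries were strand-specific, but the sources used here do not say whether strand entered the counting, so the split of reads between AIL6 and RBK1 over this overlap is uncertain. RBK1 was chosen after its values were seen.

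**Figure D2:**
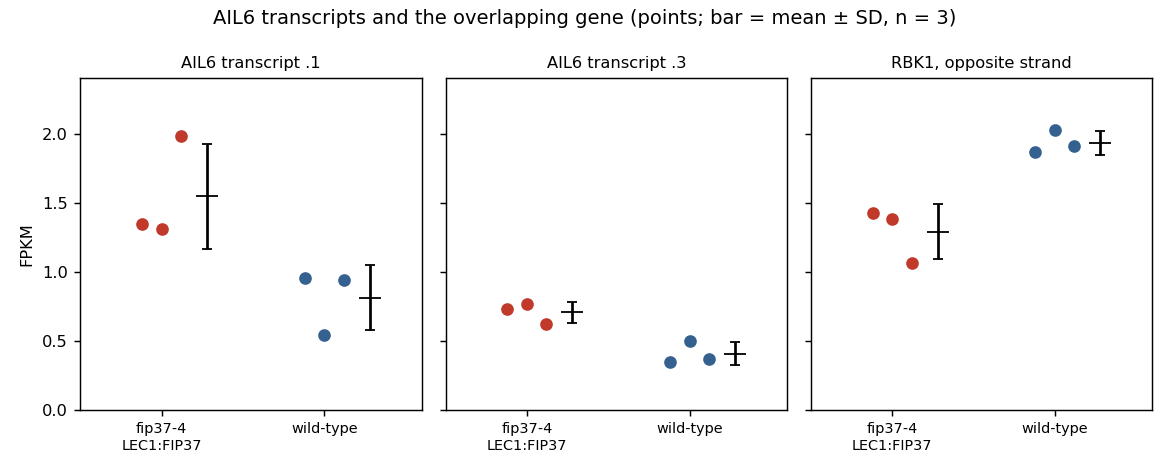
FPKM (y axis, linear from 0) of the AIL6 transcripts AT5G10510.1 and AT5G10510.3 and of the overlapping gene RBK1 in fip37-4 LEC1:FIP37 (red) and wild-type (blue) libraries, with the mean ± SD beside the points. Both AIL6 transcripts are higher in every fip37-4 LEC1:FIP37 library, and RBK1 is lower in each.

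ANT (AT4G37750), the member with the highest level, was at 4.88, 4.44 and 4.21 FPKM in fip37-4 LEC1:FIP37 and at 4.14, 4.49 and 4.77 FPKM in wild-type. The groups overlapped throughout. Its log2 fold change of 0.012 ± 0.078 did not pass (SE; limma adjusted p = 0.91), with a 95% interval from -0.17 to 0.19. About 228 to 338 fragments stood behind each of these values.

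AIL7 (AT5G65510) was below the filter. It was at 0.497, 0.375 and 0.353 FPKM in fip37-4 LEC1:FIP37 and at 0.219, 0.203 and 0.377 FPKM in wild-type. Wild-type replicate 3 lay within the range of the fip37-4 LEC1:FIP37 libraries, and the other wild-type libraries lay below it. The difference of the means was 0.142 FPKM (exact two-sided permutation p = 0.3, n = 3 each). A fit with no filter put its log2 fold change at 0.25 ± 0.11 (SE), with a limma adjusted p of 0.105. Without wild-type replicate 3 that fit gave 0.35 (limma adjusted p = 0.0331), so its verdict on AIL7 rests on that library. The depth-scaled ratio of estimated fragments, 58 in fip37-4 LEC1:FIP37 against 40 in wild-type, was 1.55 (exact 95% interval 1.02 to 2.38). That interval covers counting error only and not the spread between libraries.

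AIL5 (AT5G57390) was at 1.03, 0.790 and 0.961 FPKM in fip37-4 LEC1:FIP37 and at 0.898, 0.641 and 0.852 FPKM in wild-type. Replicate 2 was the lowest of both groups, which overlapped. Its log2 fold change of 0.14 ± 0.12 did not pass (SE; 95% interval -0.14 to 0.42; limma adjusted p = 0.351). AIL1 (AT1G72570), whose role is little described, was at 0.0270, 0 and 0.0314 FPKM in fip37-4 LEC1:FIP37, an estimated single fragment in replicates 1 and 3, and was listed at 0 in all 3 wild-type libraries. A difference was not detectable at this depth (exact two-sided permutation p = 0.4, n = 3 each).

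The root-tip members were all far lower than ANT, and the fragments behind them were estimated from steps in the low values. Among the lowest transcripts 30.3% to 46.1% per library lay within 5% of the most frequent step, taken as 1 fragment on the RefSeq length, and relative depths so obtained were 0.792 to 1.12 of wild-type replicate 1. For AIL1, PLT1, PLT2, AIL7 and BBM the transcript length was then left free and chosen to bring the values closest to whole fragments, so their closeness to whole numbers is no check of the estimate. The chosen length was 1911 nt for BBM against 2084 nt in RefSeq, 2392 against 2244 nt for PLT2, 2396 against 2368 nt for PLT1, 1583 against 1640 nt for AIL7 and 1268 against 1248 nt for AIL1. Intervals on these estimated counts cover counting error only.

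BBM (AT5G17430) was at 0.0358, 0.0444 and 0.0209 FPKM in fip37-4 LEC1:FIP37 and at 0.215, 0.169 and 0.121 FPKM in wild-type. These values correspond to an estimated 2, 3 and 1 fragments in fip37-4 LEC1:FIP37 and to 13, 11 and 7 in wild-type. Every fip37-4 LEC1:FIP37 library was below every wild-type library, as for 7.35% of the 4815 features that were above 0 but under the filter, of which 16.7% lay wholly above. The depth-scaled ratio of fip37-4 LEC1:FIP37 to wild-type fragments, 6 against 31, was 0.207 (exact 95% interval 0.0706 to 0.504).

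BBM did not pass the filter. The exact permutation test gave p = 0.1, the smallest that 3 against 3 libraries allow. In the fit with no filter, where 25% of 24198 features were lower, the value for BBM was -0.32 ± 0.069 on the log2 scale (SE; limma adjusted p = 0.00668), lower in 3 of 3 libraries. That call held in all 13 further alternatives of the same fit (adjusted p from 0.00298 to 0.0242), while the size ran from -0.99 with a pseudocount of 0.1 to -0.18 with 1.

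PLT1 (AT3G20840), which with PLT2 specifies the root stem cell niche, was at 0.0715, 0.0945 and 0.0334 FPKM in fip37-4 LEC1:FIP37 and at 0.119, 0.0736 and 0.194 FPKM in wild-type. That is an estimated 5, 8 and 2 fragments in fip37-4 LEC1:FIP37 against 9, 6 and 14 in wild-type. The groups overlapped, and the ratio of fragments was 0.553 (exact 95% interval 0.276 to 1.07). PLT2 (AT1G51190) was at 0.114, 0.0709 and 0.0668 FPKM in fip37-4 LEC1:FIP37 and at 0.185, 0.0982 and 0.138 FPKM in wild-type, from an estimated 8, 6 and 4 fragments in fip37-4 LEC1:FIP37 against 14, 8 and 10 in wild-type. Its groups also overlapped, with a ratio of 0.602 (exact 95% interval 0.318 to 1.11). The exact permutation p was 0.2 for each, and in the fit with no filter their log2 fold changes were -0.15 ± 0.085 and -0.13 ± 0.073 (SE; limma adjusted p = 0.198 and 0.176). The means of both were lower in fip37-4 LEC1:FIP37, but a difference was not detectable at this depth.

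**Figure D3:**
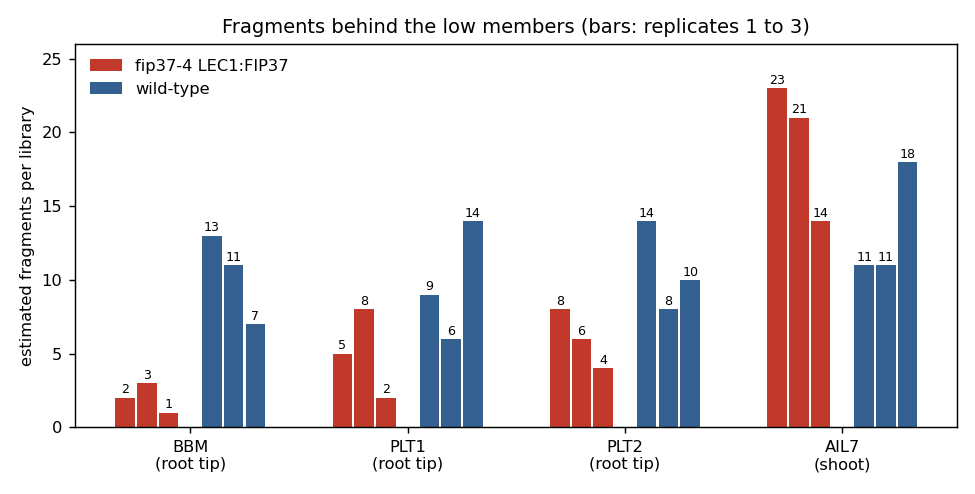
Estimated fragments per library (y axis, linear from 0) of BBM, PLT1, PLT2 and AIL7, with replicates 1 to 3 of fip37-4 LEC1:FIP37 (red) left of those of wild-type (blue) and the count above each bar. BBM has 1 to 3 fragments in fip37-4 LEC1:FIP37 and 7 to 13 in wild-type, and the other 3 genes overlap between genotypes in FPKM.

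Set against each other, the summed root-tip members were lower relative to the shoot members in fip37-4 LEC1:FIP37. PLT1, PLT2 and BBM together were at 0.222, 0.210 and 0.121 FPKM in fip37-4 LEC1:FIP37 and at 0.518, 0.341 and 0.454 FPKM in wild-type. ANT, AIL6 and AIL7 together were at 7.45, 6.89 and 7.17 FPKM in fip37-4 LEC1:FIP37 and at 5.67, 5.73 and 6.46 FPKM in wild-type. The root-tip sum was thus 2.98%, 3.05% and 1.69% of the shoot sum in fip37-4 LEC1:FIP37, and 9.15%, 5.94% and 7.02% in wild-type, with no overlap.

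This contrast was not tested, and it rests on an estimated 39 root-tip fragments in fip37-4 LEC1:FIP37 and 92 in wild-type. It depends on where AIL6 is placed. With AIL6 on the root side the share was 42.8%, 47.4% and 59.7% in fip37-4 LEC1:FIP37 and 41.7%, 29.4% and 34.2% in wild-type, which turns the direction round. Of the shoot members, AIL6 passed the test and ANT did not, and the difference between their changes was not tested.

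Of the 18708 other nuclear loci that passed the filter, the pair most like AIL6 over the 6 libraries, by Pearson correlation of log2(FPKM + 0.5), was RHS19 (AT5G67400, root hair specific 19) with r = 0.999 and GDU1 (AT4G31730, GLUTAMINE DUMPER 1) with r = 0.997. Their log2 fold changes were 0.75 and 0.43. As many as 780 loci reached r of at least 0.95, since 6 libraries of 2 genotypes leave little to tell patterns apart.

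The 10 other genes with a pair of AP2 domains were all above the filter, unlike most of the AINTEGUMENTA-like and PLETHORA genes. Of the 10, 4 rose and 2 fell, close to the 58.6% of all features tested that were called. That share, 27.6% higher and 30.9% lower, also stands behind the list counts below. SNZ (AT2G39250), a repressor of flowering, was at 15.2 ± 0.716 FPKM in fip37-4 LEC1:FIP37 and at 4.63 ± 0.424 FPKM in wild-type (SD, n = 3 each here and below; log2 fold change 1.61, limma adjusted p = 1.52e-06). TOE1 (AT2G28550) and SMZ (AT3G54990), of the same clade of flowering repressors, had log2 fold changes of 0.70 and 0.50, and WRI1 (AT3G54320), a regulator of oil synthesis, of 0.46. AP2 itself (AT4G36920) and WRI2 (AT2G41710) fell, with log2 fold changes of -0.33 and -0.27. The median of the 10 was 0.18. The lowest wild-type mean among them was the 1.54 FPKM of TOE3.

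Of 8 genes of the RGF peptide pathway, which stabilises PLETHORA protein, 3 were tested, 2 were higher and 0 lower, with a median of 0.29. The receptor genes RGI3 (AT4G26540) and RGI2 (AT3G24240) had log2 fold changes of 0.35 and 0.29 (limma adjusted p = 0.00105 and 0.0418), and RGI2 lost its call in 10 of 16 alternatives. A further receptor gene, RGI1 (AT5G48940), was below the filter and lay the other way. It was at 0.410, 0.426 and 0.440 FPKM in fip37-4 LEC1:FIP37 and at 0.635, 0.473 and 0.681 FPKM in wild-type. Of features above 0 but under the filter, 7.35% lay wholly lower like RGI1. The peptide gene RGF3 (AT2G04025), chosen after its values were seen, was listed at 0 in all 3 fip37-4 LEC1:FIP37 libraries and was at 0.188, 0.501 and 0.302 FPKM in wild-type.

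Of 13 genes of the root stem cell niche and columella, 7 were tested, 4 were higher and 0 lower (median 0.25). SHR (AT4G37650), a GRAS factor that moves from the stele to specify endodermis, was at 8.17 ± 0.312 FPKM in fip37-4 LEC1:FIP37 and at 3.43 ± 0.191 FPKM in wild-type (log2 fold change 1.14, limma adjusted p = 3.94e-06). ARF10 (AT2G28350), SCR (AT3G54220) and ACR4 (AT3G59420) rose by 0.32, 0.28 and 0.25, though SCR and ACR4 lost the call after a trend with transcript length was removed, which left 2 of the 4 (limma adjusted p = 0.101 and 0.226), and SCR also without wild-type replicate 2 (0.0686). WOX5 (AT3G11260), the marker of the quiescent centre, was below the filter, at 0.320, 0.312 and 0.374 FPKM in fip37-4 LEC1:FIP37 and at 0.495, 0.316 and 0.314 FPKM in wild-type. Unlike BBM, WOX5 overlapped between groups. BRN1 (AT1G33280) of the same list was also below the filter. It was at 0.239, 0.198 and 0.186 FPKM in fip37-4 LEC1:FIP37 and at 0.294, 0.405 and 0.427 FPKM in wild-type. BRN1 thus lay wholly lower, as did 7.35% of features above 0 but under the filter.

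Auxin sets the PLETHORA gradient. Of 8 tested genes of auxin synthesis and transport, 5 rose and 2 fell (median 0.20). PIN4 (AT2G01420) and PIN3 (AT1G70940), efflux carriers, rose by 0.64 and 0.52, and YUC8 (AT4G28720), a synthesis enzyme, by 0.67, whereas TAA1 (AT1G70560), the aminotransferase of the step before, fell (log2 fold change -0.63). The efflux carrier gene PIN2 (AT5G57090) fell as well (log2 fold change -0.34, limma adjusted p = 0.00489). The count of 5 was 3 without fip37-4 LEC1:FIP37 replicate 2, without wild-type replicate 2 and after the length correction. All 5 auxin response genes upstream of the family passed the filter, 4 rose and 0 fell (median 0.27). ARF5 (AT1G19850), which activates ANT and AIL6 in the shoot, rose by 0.57, its partner IAA12 (AT1G04550) by 0.38 and IAA14 (AT4G14550) by 0.27, while ARF7 (AT5G20730), at 0.21, had no call after the length correction, with each transcript alone or after scaling to nuclear loci.

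Of the 6 genes of the organ size pathway of ANT, 2 rose and 3 fell (median -0.13). ARL (AT2G44080), a relative of the auxin-induced growth gene ARGOS, fell to 7.20, 5.95 and 7.85 FPKM in fip37-4 LEC1:FIP37, against 15.2, 14.5 and 15.1 FPKM in wild-type (log2 fold change -1.05, limma adjusted p = 2.78e-05). The D-type cyclin genes CYCD3;2 (AT5G67260) and CYCD3;3 (AT3G50070) fell, with log2 fold changes of -0.49 and -0.31, CYCD3;3 without a call in 6 of 16 alternatives, and CYCD3;1 (AT4G34160) rose by 0.45. Of 6 genes of lateral root founding, where PLETHORA genes also act, only LBD16 (AT2G42430) could be tested, and it rose by 0.41. Of 5 embryo regulators, among which BBM acts, 1 was tested and did not pass. This was AGL15 (AT5G13790), at 1.47 ± 0.289 FPKM in fip37-4 LEC1:FIP37 and 1.17 ± 0.163 FPKM in wild-type. ABI3 (AT3G24650) was at 0.159 ± 0.0206 FPKM in fip37-4 LEC1:FIP37 and at 0.0932 ± 0.0222 FPKM in wild-type. FUS3 (AT3G26790) was at 0.131 ± 0.0171 FPKM in fip37-4 LEC1:FIP37 and at 0.0271 ± 0.0470 FPKM in wild-type. ABI3 and FUS3, below the filter, lay wholly higher, as did 16.7% of features above 0 but under the filter.

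**Figure D4:**
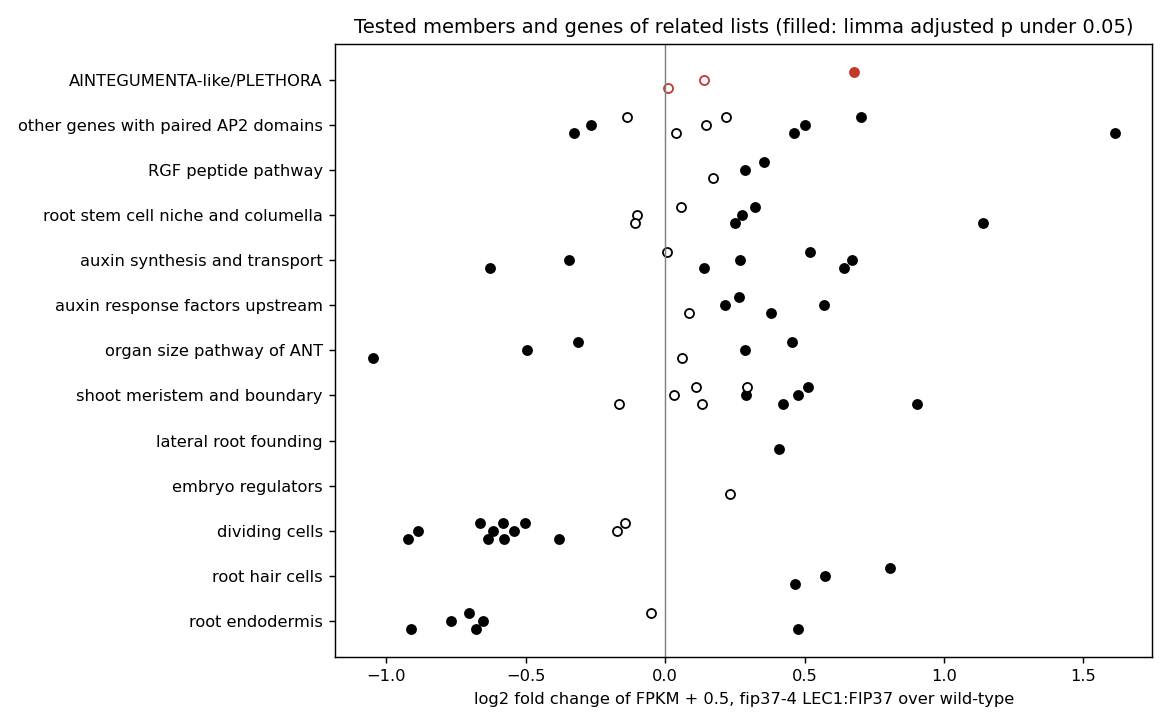
Log2 fold change of FPKM + 0.5, fip37-4 LEC1:FIP37 over wild-type (x axis), of the 3 tested members (red) and of the tested genes of 12 related lists (black), a point per gene, filled where the limma adjusted p was under 0.05. AIL6 is the filled red point at 0.68, and genes of dividing cells lie on the lower side while those of root hair cells lie on the higher side.

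Markers of dividing cells, root endodermis, root hair cells and shoot meristem were called in both directions. Among all features tested 27.6% were higher and 30.9% lower, 58.6% in all. Of 12 genes of dividing cells 10 fell and 0 rose, with a median of -0.58, and their summed level was 46.8 to 48.8 FPKM in fip37-4 LEC1:FIP37 and 68.2 to 73.6 FPKM in wild-type. CYCB2;2 (AT4G35620), AUR2 (AT2G25880), CYCB2;1 (AT2G17620) and KNOLLE (AT1G08560) had log2 fold changes of -0.92, -0.89, -0.67 and -0.64. Of 7 root endodermis genes 5 fell and 1 rose (summed level 24.2 to 25.7 FPKM in fip37-4 LEC1:FIP37 and 36.7 to 38.8 FPKM in wild-type). CASP4 (AT5G06200), CASP1 (AT2G36100) and CASP5 (AT5G15290) were lower, at log2 fold changes of -0.91, -0.77 and -0.68. SGN3 (AT4G20140) was the 1 that rose (log2 fold change 0.47, limma adjusted p = 0.000368).

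Root hair genes went the other way, 3 of 3 tested higher of 6 (summed level 6.55 to 7.13 FPKM in fip37-4 LEC1:FIP37 and 3.61 to 3.91 FPKM in wild-type). EXPA7 (AT1G12560), EXPA18 (AT1G62980) and RHD6 (AT1G66470) rose by 0.81, 0.57 and 0.46. PRP3 (AT3G62680) and COBL9 (AT5G49270), below the filter, lay wholly higher, as did 16.7% of features above 0 but under the filter. Of 15 genes of shoot meristem and boundary, 10 were tested, 5 rose and 0 fell (median 0.29; summed level 53.1 to 56.7 FPKM in fip37-4 LEC1:FIP37 and 40.8 to 41.6 FPKM in wild-type). The 5 of 10 called compare with 58.6% called among all features tested, 27.6% of them higher and 30.9% lower. KNAT1 (AT4G08150), RPK2 (AT3G02130), STM (AT1G62360) and CLV1 (AT1G75820) rose by 0.90, 0.51, 0.48 and 0.42, and the count of 5 was 3 after quantile normalization and without wild-type replicate 2. CLV3 and WUS, which define the shoot stem cell niche, were listed at 0 in all 3 wild-type libraries. In fip37-4 LEC1:FIP37 CLV3 was at 0.073, 0 and 0.116 FPKM and WUS at 0, 0.0908 and 0.0959 FPKM. Each thus overlapped wild-type, and their fragments were not estimated. CUC2 (AT5G53950), also below the filter, lay wholly higher, as did 16.7% of features above 0 but under the filter. The part of these tissue markers in the values of AIL6 and BBM was not tested.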

How the data were processed

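RNA of whole seedlings was depleted of ribosomal RNA and sequenced from strand-specific libraries, per the labels' protocols. The deposited values are FPKM per transcript, made by the authors with TopHat2 2.0.9 and Cufflinks 2.1.1 on TAIR10, per the submitters' processing notes. The files name no unit and hold no coordinates; the unit follows from those tools. The sources used here do not give the total number of fragments. Only relative depth was estimated, from the commonest ratio to wild-type replicate 1 among transcripts of at least 1000 nt chosen for values near 1 fragment in both libraries. Fragments of AIL6, ANT and AIL5 were estimated from RefSeq transcript lengths, and those of the other members with the length fitted.

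Isoforms were summed per locus. No count model was run, since FPKM are not counts. Features reaching 0.5 FPKM in 3 or more libraries were compared between genotypes by limma 3.58.1 (R 4.3.3) on log2(FPKM + 0.5), with robust empirical Bayes, a mean-variance trend, no covariate and Benjamini-Hochberg adjustment. Genes were called at an adjusted p under 0.05. Members below the filter were described, tested by exact two-sided permutation over libraries, and fitted again with no filter. Fragment ratios have exact binomial intervals (SciPy 1.17.1), and coding sequences were aligned with MAFFT 7.526.

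The members and the 13 lists (104 genes, 98 with the same symbol in the RefSeq table) were chosen with earlier results of these data known. Apart from members and FIP37, the text names up to 4 called genes of each list with the largest fold change, or the 2 highest where none was called, and for each called member the 2 nuclear loci of highest correlation. A gene that this rule names in the root endodermis list is not reported here. AP2, WRI2, RGF3, RGI1, WOX5, BRN1, PIN2, CLV3, WUS, RBK1, FUS3, PRP3, COBL9, CUC2 and SGN3 were named after their values were seen. Alternatives were other pseudocounts and filters, quantile normalization, single transcripts, plain empirical Bayes, a length correction, a replicate block, each library left out and, added after seeing the data, scaling to nuclear loci and fits with no filter and a further change.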

Additional observations from a re-analysis of the deposited data

How the results depend on the processing

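The numbers shared by replicates did not pair them: deviations from the group means correlated at -0.0278, -0.0491 and -0.0573 for replicates 1, 2 and 3. Every library correlated best with a library of another number. With the replicate block the counts were 5075 genes higher and 5804 genes lower, against 5358 and 5999 without it, and the AIL6 log2 fold change was 0.68 (limma adjusted p = 0.00176). AIL6 kept its call, and ANT and AIL5 stayed without one, under every alternative that could be computed. Leaving out a library gave 0.59 to 0.72 for AIL6, -0.04 to 0.06 for ANT, 0.05 to 0.21 for AIL5, and 4476 to 5317 genes higher and 5274 to 6047 lower. Members under the filter have no value with a filter of 1 FPKM. Their log2 differences depend on the pseudocount: with 0.1 FPKM added they were 0.25 for AIL1, -0.44 for PLT1, -0.38 for PLT2, 0.49 for AIL7 and -0.99 for BBM, against 0.05, -0.15, -0.13, 0.25 and -0.32 with 0.5, and BBM was at -0.18 with 1. In fits with no filter and a library left out they ran from 0.04 to 0.08 for AIL1, -0.21 to -0.07 for PLT1, -0.18 to -0.08 for PLT2, 0.18 to 0.35 for AIL7 and -0.37 to -0.27 for BBM. The fip37-4 LEC1:FIP37 to wild-type ratio of the root-tip share was 0.349, from 0.316 to 0.409 with a library left out. It was 1.42 with AIL6 on the root side, where AIL6 makes up most of the sum. The ARF7 log2 fold change was -0.0014 after the length correction (limma adjusted p = 0.986) and at -0.018 with each transcript alone (0.886), and the cause was not tested. Depth limits PLT1, PLT2, BBM and AIL1 most, at an estimated 14 fragments or fewer a library.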
